A study of Mus musculus with 11 samples.

Results

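The apolipoprotein genes described here are the 10 mouse genes Apoa1, Apoa2, Apoa4, Apoa5, Apob, Apoc1, Apoc2, Apoc3, Apoc4 and Apoe. A gene was followed through the row of the array table that the platform annotation assigned to it alone. Of the 10 genes, 8 had such a row, each exactly 1, among 30142 genes with a named row. Apoc2 and Apoc4, which lie next to each other, shared 1 row that carried both symbols, and neither is reported. Hepatocytes from male mice aged 12 weeks had been profiled on 11 expression arrays in 4 genotypes. Double KO arrays (n = 3) came from mice with the liver-specific Nemo deletion named NemoLPC-KO and the knockout of CXCR6. Nemo KO arrays (n = 3) carried the liver-specific Nemo deletion with Cxcr6 intact, Cxcr6 KO arrays (n = 3) carried the CXCR6 knockout with Nemo intact, and wildtype arrays (n = 2) carried neither. The source names mark double KO and Nemo KO as Cre-positive and Cxcr6 KO and wildtype as Cre-negative, and do not name the promoter that drives Cre. They place double KO and Cxcr6 KO in a Nemo and CXCR6 line and Nemo KO and wildtype in a Nemo line, so Cxcr6 status and mouse line cannot be told apart. The replicates are called biological, and the labels do not say in words that each was a separate mouse, so the spread between arrays may be partly technical.

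Apolipoproteins are the protein part of the particles that carry lipids in blood. Apob is the structural protein of very low density lipoprotein, around which the liver assembles triglyceride before secretion, and Apoa1 and Apoa2 are the main proteins of high density lipoprotein. Apoe is the ligand through which remnant particles are taken up by liver receptors, Apoc1 and Apoc3 slow lipolysis and uptake, Apoa5 promotes triglyceride hydrolysis by lipoprotein lipase, and Apoa4 rides on triglyceride-rich particles and in mouse liver responds to fasting and to fat load. Nemo, encoded by Ikbkg, is the non-catalytic component through which IkB kinases switch on NF-kB, and Cxcr6 is a chemokine receptor of T and NKT cells. The study addressed the part that Cxcr6 plays in the liver disease of mice whose hepatocytes lack Nemo.

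In the mouse reference (RefSeq, GRCm38.p6), Apoa1, Apoc3, Apoa4 and Apoa5 lie in this order as neighbours on chromosome 9, Apoc2, Apoc4, Apoc1 and Apoe lie together on chromosome 7, Apoa2 lies on chromosome 1 and Apob on chromosome 12. The sequences below are the 250 bases before the annotated start of 3 genes of the chromosome 9 group, shown because these neighbours behaved differently on the arrays: Apoa4 separated the Nemo-deleted arrays from the others, Apoa5 varied with it at a smaller scale, and Apoa1 stayed near the signal ceiling. All 3 windows are on the plus strand, upstream of the gene, and are printed 5′ to 3′, with motif matches in capitals. They lie at chr9:46228380-46228629 for Apoa1, chr9:46240594-46240843 for Apoa4 and chr9:46268358-46268607 for Apoa5.
Apoa1: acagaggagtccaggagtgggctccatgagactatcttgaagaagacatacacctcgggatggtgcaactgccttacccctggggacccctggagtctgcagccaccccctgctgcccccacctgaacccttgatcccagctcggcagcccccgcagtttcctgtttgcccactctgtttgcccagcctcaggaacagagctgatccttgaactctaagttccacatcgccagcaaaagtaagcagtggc
Apoa4: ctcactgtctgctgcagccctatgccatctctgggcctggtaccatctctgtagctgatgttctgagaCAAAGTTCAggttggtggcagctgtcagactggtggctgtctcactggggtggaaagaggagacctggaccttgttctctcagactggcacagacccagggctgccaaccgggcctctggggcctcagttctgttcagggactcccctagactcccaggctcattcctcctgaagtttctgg
Apoa5: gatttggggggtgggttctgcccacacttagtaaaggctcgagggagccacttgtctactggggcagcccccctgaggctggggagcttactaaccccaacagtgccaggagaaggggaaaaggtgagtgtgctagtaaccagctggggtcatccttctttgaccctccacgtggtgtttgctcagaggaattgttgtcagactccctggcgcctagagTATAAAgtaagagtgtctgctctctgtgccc

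The windows were searched on both strands for CAAAGTCCA and CAAAGTTCA, letters of the kind that the hepatocyte factor Hnf4a binds, for TGACG, the core of many bZIP factor elements, for TATAAA, and for AGGTCA repeated after any single base, a direct repeat bound by nuclear receptors. CAAAGTTCA was added after the sequences had been read. The Apoa4 window held 1 match, CAAAGTTCA, at bases 182 to 174 before the start, and 0.335% of 32851 promoter windows of the same length hold these letters on either strand. The Apoa5 window held 1 match, TATAAA, at bases 31 to 26 before the start, and 12.4% of windows hold it. The Apoa1 window held none of the 5 motifs. CAAAGTCCA, TGACG and the AGGTCA repeat, which occur in 0.384%, 17.8% and 0.0335% of windows, were in none of the 3 windows, and no match overlapped another. Promoter windows were matched for 8 of the 10 genes, and Apoc1 and Apoc3 were not matched.

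All values below are deposited log2 signals, so a difference of 1 is a doubling of signal. The signal is summarised per row from several probes, and levels of different genes are not compared as amounts of RNA. The targeted genes gave no check of the labels, and whether the probes of their rows lie in the deleted parts was not known. Ikbkg had signals of 8.76 to 9.49 in double KO, 9.18 to 9.45 in Nemo KO, 9.12 to 9.18 in Cxcr6 KO and 9.02 to 9.47 in wildtype. Cxcr6 lay between 4.94 and 5.56 on all 11 arrays, near the array medians of 5.19 to 5.38. In wildtype it had 5.35 and 5.47, so its row left little room for a loss to show. The wildtype arrays stood apart from each other (r = 0.984 over all rows, against 0.990 to 0.995 within the other groups), so the comparison of Nemo KO with wildtype is also given without each of them for Apoa4, Apoa5, Apoc1 and Apob. Arrays carry no read depth, and their number limits the precision. Hepatocyte markers were at the top of the scale in every group, with mean log2 signals over 10 of 12 listed markers of 18.63 to 18.83 in double KO, 18.70 to 18.89 in Nemo KO, 18.68 to 18.86 in Cxcr6 KO and 18.54 to 18.84 in wildtype.

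**Figure D1:**
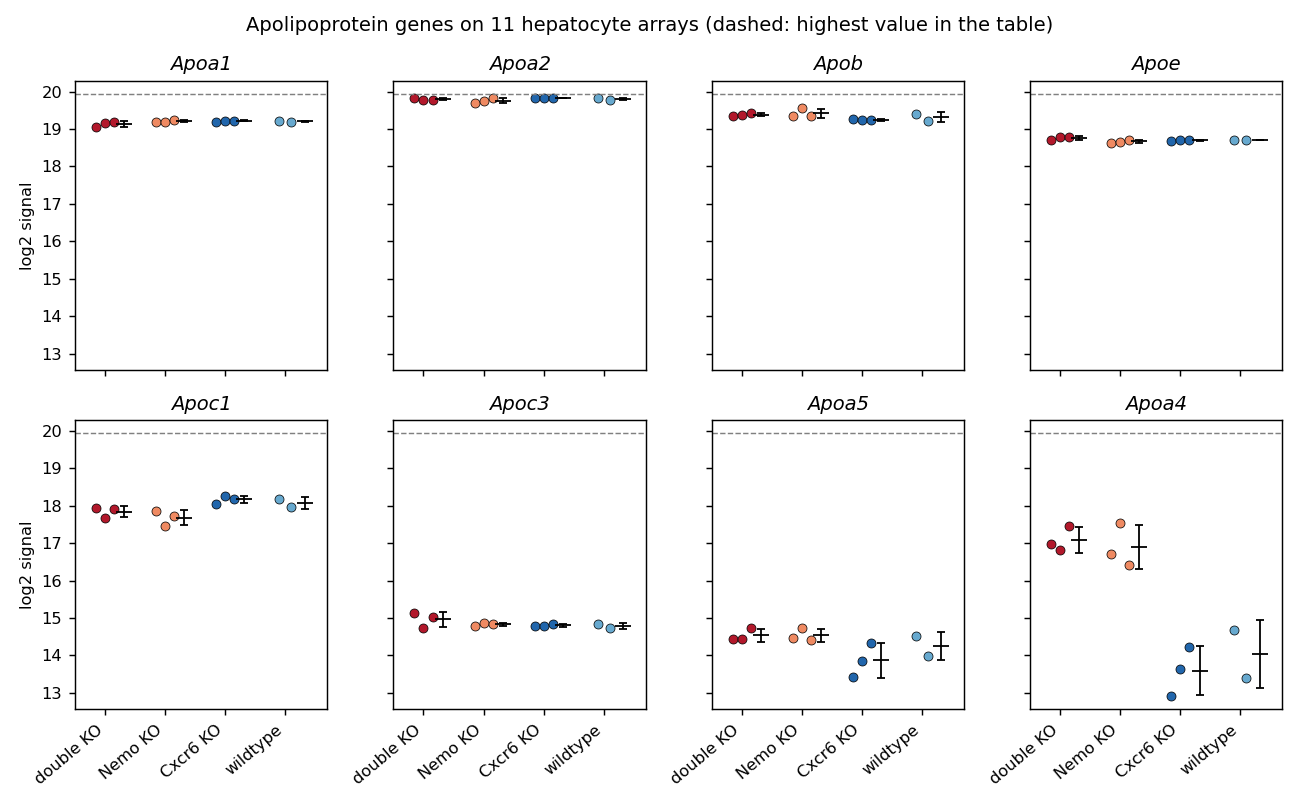
Log2 signal (vertical axis, common to all panels) of the 8 apolipoprotein genes in each array of double KO, Nemo KO, Cxcr6 KO (n = 3 each) and wildtype (n = 2). Points are arrays, the bars beside them are the mean and SD of the group, and the dashed line is the highest value in the table, 19.93. The 6 Nemo-deleted arrays lie above the other 5 by 1.73 for Apoa4 and below them by 0.01 for Apoc1, while Apoa1, Apoa2, Apob and Apoe lie flat under the dashed line.

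Apoa4 was the apolipoprotein gene that differed most between genotypes, and it followed Nemo status. It rose in double KO hepatocytes relative to Cxcr6 KO hepatocytes by 3.49 ± 0.44 on the log2 scale (SE), an 11.3-fold higher signal with a 95% interval of 5.65 to 22.5 (limma, adjusted p = 0.00856). Its log2 signals were 16.97, 16.81 and 17.46 in double KO replicates 1 to 3, against 12.91, 13.63 and 14.22 in Cxcr6 KO. Every double KO array thus lay above every Cxcr6 KO array, as was the case for 13.3% of genes. In this comparison 7.41% of the 18337 genes tested were called at an adjusted p under 0.05, 3.44% as higher and 3.96% as lower, and Apoa4 was the 1 called gene of the 8 apolipoprotein genes. By size, its fold change ranked 20 among all genes tested. In such bulk RNA, a change in the share of cells that hold a transcript and a change in its amount per cell cannot be told apart.

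In Nemo KO hepatocytes Apoa4 had log2 signals of 16.70, 17.55 and 16.42, against 14.69 and 13.40 in wildtype. The groups again did not overlap, which was true in the same direction of 11.3% of genes. The log2 fold change was 2.84 ± 0.49 (7.18-fold, 95% interval 3.32 to 15.5), ranked 19 by size. Its adjusted p was 0.0564, so it did not pass at 5% in a comparison where 0.158% of genes did, 0.0491% as higher and 0.109% as lower. Without wildtype replicate 2 the log2 fold change was 2.20, and without wildtype replicate 1 it was 3.49. A lone wildtype array was assumed to vary like the other groups, so fits with 1 wildtype array give no check of the call. Over all alternatives run the highest adjusted p was 0.319, with only these 2 groups in the fit. Over the 2 comparisons, which share no array, the 6 Nemo-deleted arrays ranged from 16.42 to 17.55 and the 5 arrays with intact Nemo from 12.91 to 14.69, which left a gap of 1.73, and 2.03% of genes were separated in that direction.

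Cxcr6 status did not separate Apoa4. Double KO averaged 17.08 ± 0.34 and Nemo KO 16.89 ± 0.59 (SD, n = 3 each), a log2 fold change of 0.19 ± 0.44 with a 95% interval of -0.80 to 1.19 (adjusted p = 0.842). Cxcr6 KO averaged 13.59 ± 0.66 (n = 3) and wildtype 14.04 ± 0.91 (n = 2), a log2 fold change of -0.46 ± 0.49 with an interval of -1.57 to 0.66 (adjusted p = 0.808). The arrays of both pairs overlapped. The Nemo effect on Apoa4 with Cxcr6 deleted minus that with Cxcr6 intact was 0.65 ± 0.66 (interval -0.84 to 2.14, adjusted p = 0.70). An interval this wide leaves room for a difference in either direction. In order of level, double KO and Nemo KO were neighbours that did not differ beyond their spread, as were wildtype and Cxcr6 KO, and the step between Nemo KO and wildtype was larger than the spread within either.

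Markers of other liver cell types moved with the same contrast, and also between double KO and Nemo KO. Of 10 endothelial markers, 9 were called higher in double KO than in Cxcr6 KO, beside 3.44% of all genes. Their mean log2 signals were 8.36 to 9.30 against 6.56 to 7.28. Of 13 markers of Kupffer cells and macrophages, 5 were called higher (8.09 to 9.09 in double KO, against 6.91 to 7.24 in Cxcr6 KO), and of 10 markers of stellate cells and fibroblasts, 8 were tested and 6 called higher (6.46 to 7.18, against 5.63 to 5.77), with Des and Acta2 below the level needed for testing in all groups. In Nemo KO against wildtype none of these markers was called, but all 10 endothelial, 13 macrophage and 8 stellate markers tested had positive fold changes. Their mean signals there were 7.57 to 8.08 against 7.15 to 7.28 for endothelial cells, 7.23 to 8.78 against 6.54 to 7.58 for macrophages and 6.28 to 6.38 against 5.77 to 6.09 for stellate cells. In the average of both Nemo comparisons, described below, 9 of 10, 7 of 13 and 7 of 8 were called higher, beside 4.84% of all genes. Of 8 cholangiocyte markers, 5 were tested and 3 were called higher in double KO against Cxcr6 KO, with mean signals of 5.90 to 6.63 against 5.43 to 5.57 over 7 markers. Markers of T, NK and NKT cells, neutrophils and B cells had means of 4.70 to 5.45 on all arrays, and 4 of 7, 3 of 5 and 3 of 3 with a row were below the testing level. The erythroid list had rows for 2 of 5 markers and 1 tested gene, Alas2, which fell in double KO relative to Cxcr6 KO. In double KO against Nemo KO, all 10 endothelial, 12 of 13 macrophage and all 8 stellate markers tested had positive fold changes. Their median log2 fold changes were 1.22, 0.77 and 0.55, against 0.19 for Apoa4. Of these markers, 1 endothelial marker was called higher there, beside 0.365% of all genes. The part of these cell types in the Apoa4 result was not tested.

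**Figure D2:**
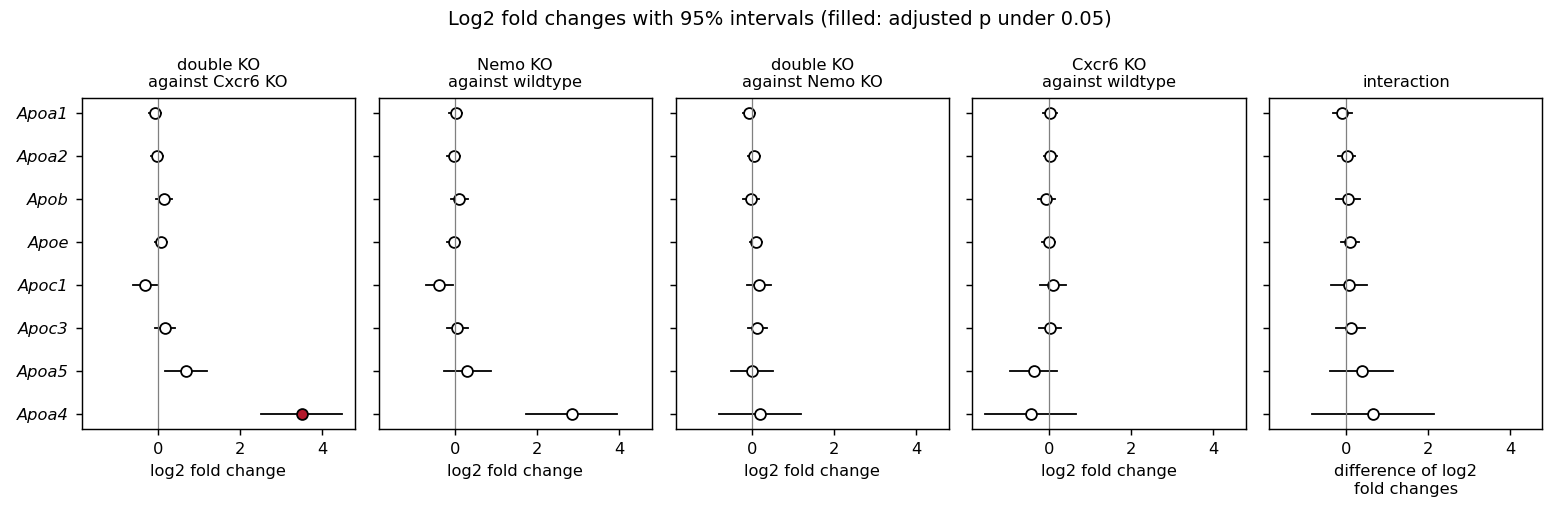
Log2 fold changes (horizontal axis) of the 8 apolipoprotein genes in the 5 comparisons, with 95% intervals from the fit as lines; the interaction panel gives the Nemo effect with Cxcr6 deleted minus that with Cxcr6 intact. Filled points have an adjusted p under 0.05. Only Apoa4 in double KO against Cxcr6 KO is filled, at 3.49, and its point in Nemo KO against wildtype lies at 2.84.

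Apoa5, the neighbour of Apoa4 that aids triglyceride hydrolysis, varied in the same direction on a smaller scale and did not pass the test. Its log2 signals were 14.43, 14.44 and 14.73 in double KO, against 13.41, 13.86 and 14.33 in Cxcr6 KO. These groups did not overlap, as was true in this direction of 13.3% of genes, and the log2 fold change was 0.67 ± 0.23 (95% interval 0.16 to 1.19, adjusted p = 0.0949). In Nemo KO the signals were 14.46, 14.72 and 14.43, against 14.51 and 13.99 in wildtype, and these groups overlapped (log2 fold change 0.29 ± 0.25, adjusted p = 0.53). Without wildtype replicate 1 this value was 0.55 (adjusted p = 0.424) and without wildtype replicate 2 it was 0.03 (adjusted p = 0.973). Double KO and Nemo KO had the same mean to 2 decimals, 14.54, with SDs of 0.17 and 0.16.

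Apoa5 and Apoa4 also followed each other among replicates of a group. In each of the 4 genotypes the array with the highest Apoa4 signal was also the one with the highest Apoa5 signal. These were replicate 3 of the double KO, replicate 2 of the Nemo KO, replicate 3 of the Cxcr6 KO and replicate 1 of the wildtype arrays. The arrays with the lowest signals also matched except in double KO, where Apoa4 was lowest in replicate 2 and Apoa5 in replicate 1. With the group means removed, the correlation of Apoa5 with Apoa4 over the 11 arrays was 0.938, and 16 genes tested, Apoa4 and Apoa5 among them, reached that value (0.0873%). The same correlation was 0.722 for Apob, 0.406 for Apoc3 and between 0.006 and 0.174 for Apoa1, Apoa2, Apoc1 and Apoe. These values describe 11 arrays that share their processing, and arrays of a group have no order.

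Apoc1, an inhibitor of lipoprotein uptake and lipolysis encoded beside Apoe, had lower signals in the Nemo-deleted groups. It had log2 signals of 17.94, 17.68 and 17.91 in double KO, against 18.06, 18.26 and 18.19 in Cxcr6 KO. In Nemo KO the signals were 17.86, 17.45 and 17.73, against 18.19 and 17.96 in wildtype. Neither pair of groups overlapped, as was true in this direction of 24.4% and 24.7% of genes. The log2 fold changes were -0.32 ± 0.13 (adjusted p = 0.133) and -0.39 ± 0.14 (adjusted p = 0.136), and neither passed. The Nemo KO value was -0.28 without wildtype replicate 1 (adjusted p = 0.485) and -0.51 without wildtype replicate 2 (adjusted p = 0.097). All 6 Nemo-deleted arrays lay below all 5 arrays with intact Nemo, by 0.01 at the closest, as did 7.12% of genes. Double KO minus Nemo KO was 0.16 ± 0.13 (adjusted p = 0.53).

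**Figure D3:**
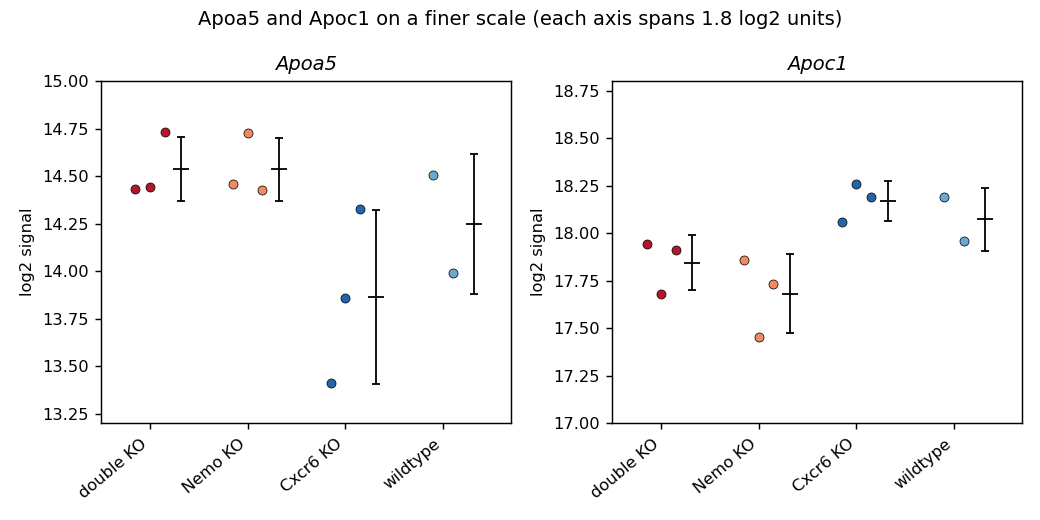
Log2 signal (vertical axes, each spanning 1.8 log2 units and not starting at 0) of Apoa5 and Apoc1 in each array of double KO, Nemo KO, Cxcr6 KO and wildtype. Points are arrays and the bars are mean and SD. Apoa5 reaches its lowest value, 13.41, in Cxcr6 KO, and Apoc1 is at or below 17.94 in double KO and Nemo KO and at or above 17.96 in Cxcr6 KO and wildtype.

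After these values had been seen, both Nemo comparisons were averaged in the same fit, which sets the 6 Nemo-deleted arrays against the other 5 with each line weighted equally. Apoa4 was higher by 3.17 ± 0.33 (95% interval of the fold change 5.36 to 15.1, adjusted p = 0.00435), and this held without any single array, with values of 2.85 to 3.49 and adjusted p of at most 0.0193. Apoc1 fell by 0.36 ± 0.10 on the log2 scale (adjusted p = 0.0309). Of all genes tested, 20.3% were called in this average, 4.84% higher and 15.4% lower, so a fall was common among the genes measured. The Apoc1 call was lost with quantile normalization (adjusted p = 0.0523), with a trended and robust variance (0.0517), and without double KO replicate 2 or 3, Cxcr6 KO replicate 2 or 3, Nemo KO replicate 2 or wildtype replicate 1 (adjusted p of 0.0519 to 0.114). Apoa5 had an average of 0.48 ± 0.17 (adjusted p = 0.078), which passed without Cxcr6 KO replicate 3 (adjusted p = 0.0424). The other 5 genes had averages of -0.04 to 0.12 and adjusted p of 0.215 to 0.895.

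Apob, the core protein of very low density lipoprotein, had log2 signals of 19.36, 19.36 and 19.44 in double KO, against 19.27, 19.23 and 19.24 in Cxcr6 KO. These groups did not overlap, as was true in this direction of 13.3% of genes, and the log2 fold change was 0.14 ± 0.09 (adjusted p = 0.303). In Nemo KO the signals were 19.34, 19.56 and 19.34, against 19.41 and 19.23 in wildtype, with overlap and a log2 fold change of 0.10 ± 0.10 (adjusted p = 0.563). Without wildtype replicate 1 it was 0.19 and without wildtype replicate 2 it was 0.01, with an adjusted p of at least 0.448. Of 5 genes of Apob mRNA editing, none was called in any of the 5 comparisons. The 2 with the smallest p were the editing cofactors A1cf (-0.53 ± 0.19 in double KO against Cxcr6 KO and -0.90 ± 0.21 in Nemo KO against wildtype, adjusted p = 0.101 and 0.0713) and Rbm47 (-0.40 ± 0.12 and -0.19 ± 0.13, adjusted p = 0.0695 and 0.415). Both were called lower in the averaged Nemo effect described above (-0.72 ± 0.14 and -0.29 ± 0.09, adjusted p = 0.0133 and 0.0463). They were the only 2 of the 5 called there, where 15.4% of all genes were called lower.

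The high density lipoprotein genes hardly moved in signal. Apoa1 had log2 signals of 19.05, 19.15 and 19.19 in double KO, against 19.20, 19.22 and 19.22 in Cxcr6 KO, and of 19.19, 19.20 and 19.24 in Nemo KO, against 19.21 and 19.20 in wildtype. Its log2 fold changes were -0.08 ± 0.07 and 0.01 ± 0.07 (adjusted p = 0.428 and 0.978). The double KO arrays lay below the Cxcr6 KO and Nemo KO arrays without overlap, as was true in this direction of 24.4% and 9.94% of genes. The highest double KO signal, 19.1886, was barely below the lowest Nemo KO signal, 19.189. Apoa2 had signals of 19.82, 19.78 and 19.79 in double KO, against 19.82, 19.83 and 19.82 in Cxcr6 KO, and of 19.71, 19.75 and 19.82 in Nemo KO, against 19.82 and 19.77 in wildtype. Its fold changes were -0.03 ± 0.06 and -0.04 ± 0.07 (adjusted p = 0.786 and 0.778). The double KO arrays of Apoa2, at most 19.8209, also lay below its Cxcr6 KO arrays, at least 19.8224, again as for 24.4% of genes.

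Apoe, which hepatocytes and macrophages both make, had log2 signals of 18.71, 18.78 and 18.79 in double KO, against 18.67, 18.71 and 18.71 in Cxcr6 KO. In Nemo KO it had 18.63, 18.66 and 18.71, against 18.70 and 18.71 in wildtype. Both pairs overlapped, with log2 fold changes of 0.06 ± 0.06 and -0.04 ± 0.07 (adjusted p = 0.569 and 0.797). Apoc3, an inhibitor of lipoprotein lipase that lies between Apoa1 and Apoa4, had signals of 15.14, 14.73 and 15.02 in double KO, against 14.78, 14.77 and 14.85 in Cxcr6 KO. In Nemo KO it had 14.79, 14.87 and 14.85, against 14.85 and 14.72 in wildtype. Both pairs overlapped here too, and the fold changes were 0.16 ± 0.10 and 0.05 ± 0.12 (adjusted p = 0.347 and 0.83). Apoc3 lay 5.08 below the highest value in the table, and its group means spanned 0.18. The cause of this narrow range was not tested.

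None of the 8 genes was called for Cxcr6 status or the interaction. In double KO against Nemo KO, where 0.594% of genes were called (0.365% higher, 0.229% lower), the log2 fold changes of the 7 genes other than Apoa4 ran from -0.08 for Apoa1 to 0.16 for Apoc1 (adjusted p of 0.498 to 1). In Cxcr6 KO against wildtype, where 0.256% of genes were called (0.175% higher, 0.0818% lower), they ran from -0.38 for Apoa5 to 0.10 for Apoc1 (adjusted p of 0.656 to 0.982). For the interaction no gene of the 18337 was called, 2155 had an unadjusted p under 0.05, and the 7 genes ran from -0.09 for Apoa1 to 0.38 for Apoa5 (adjusted p of 0.66 to 0.974). The median of the 8 genes was 0.10 in double KO against Cxcr6 KO and 0.03 in Nemo KO against wildtype, beside medians over all genes of -0.06 and -0.04. Of the 8 genes, 6 had the same sign in both Nemo comparisons, and Apoa1 and Apoe did not.

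The signal ceiling bears on how these small differences are read. The highest value in the table was 19.93, and Apoa2, Apob and Apoa1 had means over the 11 arrays of 19.79, 19.34 and 19.19, within 1 log2 unit of it. Apoe lay 1.22 below it, Apoc1 2.00, Apoa4 4.41, Apoc3 5.08 and Apoa5 5.63. Of the genes tested, 37 had means within 1 unit of the ceiling. None of these 37 was called in double KO against Cxcr6 KO, and the widest range of group means among them was 0.75, for Hpx, with a median of 0.16. Of 89 genes 1 to 2 units below the ceiling, 5.62% were called in that comparison, with a median range of 0.72, and of 240 genes 2 to 4 units below it, 24 were called, with a median range of 0.65. Apoa1, Apoa2 and Apob had ranges of 0.08, 0.07 and 0.17, and Apoe 0.09, the last below the median of its own level class. The narrow intervals of Apoa1, Apoa2 and Apob describe signals near the ceiling, and how they relate to differences in RNA amount was not tested.

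**Figure D4:**
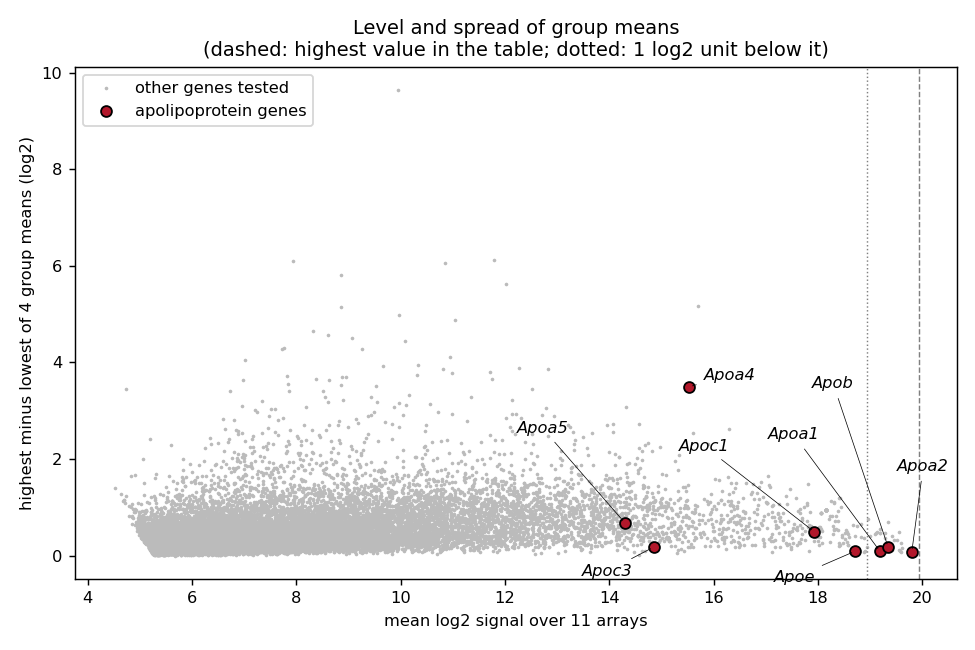
Mean log2 signal over 11 arrays (horizontal axis) against the difference between the highest and the lowest of the 4 group means (vertical axis, log2) for the 18337 genes tested, with the 8 apolipoprotein genes in red. The dashed line is the highest value in the table and the dotted line lies 1 unit below it. Apoa4 stands at 15.52 with a range of 3.49, and all genes right of the dotted line have ranges of 0.75 or less.

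Genes with the pattern most like that of Apoa4 were sought among all genes tested, by Pearson correlation over the 11 arrays and leaving out the other apolipoprotein genes, predicted or unnamed models, small RNAs and olfactory receptors. The 5 closest were the acute-phase antiprotease Serpina3n (r = 0.970), the cadherin-related gene Cdhr5 (0.962), the membrane-anchored surface protein gene Ly6d (0.951), Nipal2 (0.950) and the adhesion protein gene Gldn (0.946). Serpina3n averaged 17.39 in double KO arrays and 17.58 in Nemo KO arrays, against 16.68 in Cxcr6 KO arrays and 16.69 in wildtype arrays, and Cdhr5 averaged 13.74 and 13.53, against 12.22 and 12.14. The 11 arrays share their processing and the split by Nemo status. Among the apolipoprotein genes the correlation with Apoa4 over the 11 arrays was 0.856 for Apoa5, 0.792 for Apob and -0.729 for Apoc1.

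The other genes of lipoprotein metabolism were counted over 8 lists of 99 genes, of which 86 were tested, 11 had no row of their own and 2 were below the level needed for testing. In double KO against Cxcr6 KO, 7 were called higher and 3 lower, 11.6% of those tested beside 7.41% of all genes. None of the 86 was called by limma in Nemo KO against wildtype (0.158% of all genes), for either Cxcr6 comparison (0.594% with Nemo deleted and 0.256% with Nemo intact) or for the interaction (0%). In the averaged Nemo effect, added after values had been seen, 13 of the 86 were called higher and 12 lower, 29.1% beside 20.3% of all genes. The median of the 86 was 0.02 in double KO against Cxcr6 KO and -0.08 in Nemo KO against wildtype.

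In double KO against Cxcr6 KO, 3.44% of all genes were called higher and 3.96% lower. Among receptors and uptake proteins, 4 of 12 tested genes were called higher there and none lower. They were the remnant receptor gene Lrp1 (0.69 ± 0.15, adjusted p = 0.0302), the heparan sulfate proteoglycan gene Sdc1 (1.10 ± 0.24, adjusted p = 0.0328), and the scavenger receptor genes Stab1 (0.86 ± 0.17, adjusted p = 0.0228) and Stab2 (1.76 ± 0.31, adjusted p = 0.0178), which sinusoidal endothelial cells express. Stab2 also stands in the endothelial marker list, whose level moved with this contrast as given above. Lrp1 had 0.50 ± 0.16 in Nemo KO against wildtype and did not pass (adjusted p = 0.114). Of 6 tested genes of cholesterol efflux, 1 was called higher in double KO against Cxcr6 KO and none lower, beside the same shares. It was the transporter gene Abcg1 (0.68 ± 0.10, adjusted p = 0.0134).

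In double KO against Cxcr6 KO, 1 of 10 tested genes of other apolipoproteins was called higher and 1 lower. The shares over all genes were 3.44% and 3.96%. Clu, which encodes apolipoprotein J, rose (0.68 ± 0.13, adjusted p = 0.0208), with 0.58 ± 0.14 in Nemo KO against wildtype (adjusted p = 0.074). Apool, which encodes a mitochondrial inner membrane protein of the apolipoprotein O family, fell (-0.41 ± 0.09, adjusted p = 0.0274), with -0.37 ± 0.10 in Nemo KO against wildtype (adjusted p = 0.0812). None of 15 genes of very low density lipoprotein assembly was called in the 5 comparisons. In the averaged Nemo effect 2 of the 15 were called lower, beside 15.4% of all genes, and none higher. They were Sec23a and Sec24a (-0.34 ± 0.09 and -0.30 ± 0.08, adjusted p = 0.0278 and 0.029). Mttp, the microsomal protein that loads lipid onto Apob, had 0.26 ± 0.15 in double KO against Cxcr6 KO and 0.38 ± 0.17 in Nemo KO against wildtype (adjusted p = 0.289 and 0.213). Mia2 and Sec24a, which act in export of cargo from the endoplasmic reticulum, had -0.32 ± 0.11 and -0.26 ± 0.10 in double KO against Cxcr6 KO (adjusted p = 0.10 and 0.14).

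None of 10 tested genes of lipases and plasma lipid transfer was called in the 5 comparisons. In the averaged Nemo effect 2 of the 10 were called higher and 1 lower, beside 4.84% and 15.4% of all genes. Gpihbp1 and Lmf1 rose (0.52 ± 0.15 and 0.30 ± 0.09, adjusted p = 0.0432 and 0.0485) and Pltp fell (-1.09 ± 0.26, adjusted p = 0.0208). Lpl, the lipoprotein lipase gene, had mean log2 signals of 10.15 in double KO and 6.51 in Cxcr6 KO (3.64 ± 1.13, adjusted p = 0.076), while the Nemo KO arrays had 8.41, 8.93 and 9.03, against 6.40 and 12.10 in wildtype (-0.46 ± 1.26, adjusted p = 0.861). The Nemo KO arrays thus lay above one wildtype array and below the other, and no direction can be read from this comparison. The phospholipid transfer protein gene Pltp had -0.96 ± 0.34 and -1.22 ± 0.38 in these comparisons (adjusted p = 0.106 and 0.103). The 2 others with small p were Gpihbp1, the endothelial anchor of lipoprotein lipase (0.77 ± 0.20 in double KO against Cxcr6 KO, adjusted p = 0.0525), and the endothelial lipase gene Lipg, with 2.76 ± 0.69 in Cxcr6 KO against wildtype (adjusted p = 0.172).

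Of 17 tested regulators of apolipoprotein genes, 13 had negative fold changes in each Nemo comparison. Their medians were -0.21 in double KO against Cxcr6 KO and -0.32 in Nemo KO against wildtype, beside -0.06 and -0.04 over all genes. In the averaged Nemo effect 4 were called lower, beside 15.4% of all genes, and none higher. In double KO against Cxcr6 KO 2 were called lower, beside 3.96% of all genes, and none higher. They were Ppara, the nuclear receptor of fatty acid catabolism (-1.28 ± 0.16, adjusted p = 0.00856), and the hepatocyte factor Cebpa (-1.57 ± 0.39, adjusted p = 0.0453). Mean log2 signals of Ppara were 11.69 in double KO and 12.98 in Cxcr6 KO, with 12.15 in both Nemo KO and wildtype. Ppara had 0.00 ± 0.18 in Nemo KO against wildtype (adjusted p = 1), and the interaction was -1.28 ± 0.25 (adjusted p = 0.251). Hnf4a, a main activator of apolipoprotein genes, had -0.30 ± 0.18 and -0.84 ± 0.20 in the Nemo comparisons (adjusted p = 0.315 and 0.0736). Creb3l3, a liver factor that activates Apoa4 in mouse, had mean log2 signals of 12.14 in both double KO and Nemo KO, against 12.21 in Cxcr6 KO and 11.90 in wildtype, with adjusted p of 0.486 or more in all 5 comparisons. Of 12 tested genes of the fasting and lipid droplet response, 7 had positive and 5 negative fold changes in double KO against Cxcr6 KO. Pdk4, which restrains pyruvate oxidation, was called higher (3.95 ± 1.00, adjusted p = 0.0476) and none was called lower, beside 3.44% and 3.96% of all genes. Pdk4 had 2.29 ± 1.12 in Nemo KO against wildtype (adjusted p = 0.244). The lowest value there was -3.73, for Cyp4a14, which was not called and whose wildtype signals were 17.96 and 14.72. In the averaged Nemo effect 3 of the 12 were called higher and 1 lower, beside 4.84% and 15.4% of all genes.

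**Figure D5:**
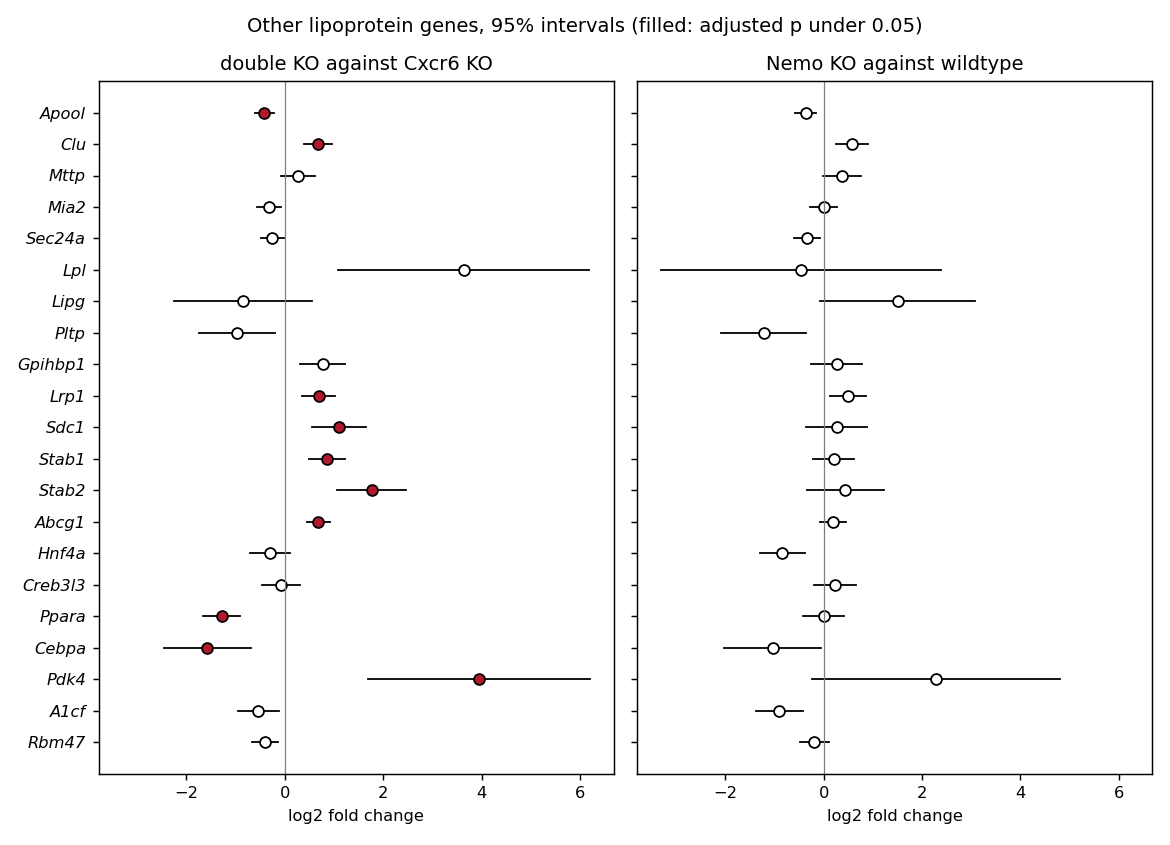
Log2 fold changes (horizontal axis) with 95% intervals of other lipoprotein genes, double KO against Cxcr6 KO on the left and Nemo KO against wildtype on the right. Genes run by list from other apolipoproteins at the top to Apob mRNA editing at the bottom, and filled points have an adjusted p under 0.05. Filled points stand on the left only, from Cebpa at -1.57 to Pdk4 at 3.95, and none of the genes drawn passed on the right.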

How the data were processed

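Total RNA, 300 ng per sample, was prepared with the WT Plus kit, per the labels' protocols. The authors used Affymetrix Expression Console, RMA and Transcriptome Analysis Console, per the submitters' processing notes; versions and the genome build are not given in the sources used here. The deposited values are log2 signals, 65956 rows by 11 arrays. Rows with 1 gene symbol (30604) were named. Of these, 22818 were matched through GRCm38.p6 gene identifiers, which changed 827 symbols. The row with the highest mean was kept per gene. Genes were tested if their highest group mean reached the median row mean, 5.27. All 4 groups were fitted with limma 3.58.1 (R 4.3.3), using lmFit and a plain eBayes,, two-sided, with Benjamini-Hochberg adjustment over 18337 genes and calls at 5%. Errors of log2 fold changes are SE and those of group means SD. All members were named, with pathway genes called in any of the 5 comparisons, the 2 with the smallest p of a list without calls, and Hnf4a, Creb3l3, Ppara, Mttp, Pltp and Lpl; another gene of that rule is not reported here. Members and lists were chosen with earlier results of these data known. Other normalizations, filters, variance models, blocks and left-out arrays were tried.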

Additional observations from a re-analysis of the deposited data

How the results depend on the processing

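The Apoa4 call in double KO against Cxcr6 KO held in every alternative run, and its log2 fold change without any single array lay between 3.16 and 3.81. Its call in Nemo KO against wildtype was also made with each array centred on its median, so that 1 of the 8 genes was called in place of 0, and leaving out single arrays gave 0 to 1. The averaged Nemo effect called 1 of the 8 genes, in place of 2, with quantile normalization and with a trended and robust variance, and 1 to 2 without single arrays. Counts over all genes moved more. Nemo KO against wildtype had 29 calls, and 11 with quantile normalization, 1274 with median centring, 7 with no filter, 11 with a trended and robust variance, 0 with only its groups in the fit, 0 with the replicate number as a block, and 0 to 2369 without single arrays, the highest without wildtype replicate 2. Cxcr6 KO against wildtype had 47 calls, and 28 with median centring, 24 with no filter, 0 with only its groups, 24 with the replicate block and 8 to 486 without single arrays. For Cxcr6 status with Nemo deleted there were 109, and 200, 11 and 61 with median centring, only its groups and the replicate block, and 19 to 161 without single arrays. Double KO against Cxcr6 KO had 1358, and 2766 with only its groups and 116 to 2352 without single arrays, the lowest without Cxcr6 KO replicate 3. The average had 3715, and 1369 to 5026, and the interaction 0, and 0 to 230. In double KO against Cxcr6 KO 46.5% of calls were higher, and 58.6% with median centring. Arrays with the same replicate number shared only that number: their deviations from the group means correlated between -0.232 and 0.275, and the block changed no call among the 8 genes. The cause of these shifts was not tested.

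Uncalled log2 fold changes near 0 changed sign. With median centring, Apoa1 had -0.0072 in Cxcr6 KO against wildtype, 0.0389 in double KO against Nemo KO, 0.0461 for the interaction and -0.0740 in Nemo KO against wildtype. Under the same setting Apoa2 had 0.0259 in double KO against Cxcr6 KO, Apob had 0.0887 in double KO against Nemo KO, and Apoc3 had -0.0043 in Cxcr6 KO and -0.0279 in Nemo KO against wildtype. With quantile normalization, Apoa2 had -0.0200 in Cxcr6 KO against wildtype and 0.0251 in double KO against Cxcr6 KO, Apoa5 had -0.0123 in double KO against Nemo KO and Apoc1 had -0.1438 in Cxcr6 KO against wildtype. With the replicate block, Apoa1 had -0.0030 in Cxcr6 KO and -0.0102 in Nemo KO against wildtype, and Apoc3 had -0.0032 in Cxcr6 KO against wildtype. Leaving out single arrays also turned signs. In Cxcr6 KO against wildtype, Apoa4 ran from -1.0987 to 0.1854, Apob from -0.1603 to 0.0202, Apoc1 from -0.0194 to 0.2122, Apoc3 from -0.0453 to 0.0763 and Apoe from -0.0155 to 0.0042. In double KO against Nemo KO, Apoa4 ran from -0.0433 to 0.5247, Apoa5 from -0.0969 to 0.0947 and Apob from -0.0633 to 0.0437. In Nemo KO against wildtype, Apoa1 ran from -0.0085 to 0.0149 and Apoc3 from -0.0092 to 0.1124. For the interaction, Apoa2 ran from -0.0157 to 0.0414, Apob from -0.0479 to 0.1326 and Apoc1 from -0.0489 to 0.1826.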
